A study of Mus musculus with 9 samples.

Results

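Mafg and Srxn1 were followed across brain arrays of mice with and without CAIX, the carbonic anhydrase encoded by Car9. Members were all probes whose identifier carries the NCBI mouse gene number of either gene behind 1 or 2 zeros, which gave 1 probe for Mafg and 3 for Srxn1 among 46116 probes, and 2 genes of 8706 that a probe could be matched to. All 4 were above background on all 9 arrays. Both genes had been chosen by their measured difference between knockout and wild type, since 1 probe of each stood among the named probes of smallest p in that comparison. Their differences between the groups are therefore given as a description, without a test, and the same holds for every other Srxn1 probe.

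MAFG is a small Maf protein, a basic leucine zipper factor that binds DNA but has no activation domain of its own. It acts as a partner of larger factors. With NRF2 (gene Nfe2l2) or NRF1 (Nfe2l1) it binds antioxidant response elements and activates them, while with BACH1 or BACH2 it represses the same kind of element. Under resting conditions KEAP1 and the ubiquitin ligase scaffold CUL3 hold NRF2 low. SRXN1, sulfiredoxin, uses ATP to rescue peroxiredoxins whose active-site cysteine has been over-oxidised by peroxide, and it is a known NRF2 target in mouse cells, neurons and astrocytes included.

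Single-colour bead arrays of brain RNA were available from 5 wild-type mice and 4 mice titled knockout, all 8 months old and on a C57BL/6 background. Neither the design of the targeted allele nor the brain region is stated in the labels. The groups follow the sample titles, read through the header of the table of non-normalized signals. The genotype characteristic names another genotype for 6 of the 9 samples, and 4 arrays lie under different samples in the table of processed values, so the groups can be read in 4 ways. A probe named after the neomycin resistance gene was at 9.90 to 10.56 on the 4 arrays titled knockout and at 6.78 to 6.82, below background, on the 5 titled wild type. The number of probes above background was 14895 to 17325 an array, and the median signal ran from 133.2 on knockout 4 to 209.8 on wild type 1. Of 8 neuronal markers with a probe, 6 were measured, among them Syp and Eno2, which were above background on all arrays. All levels below are background-corrected, quantile-normalised log2 signals, and each difference is knockout minus wild type on that scale.

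The promoters of both genes are shown because NRF2 and small Maf proteins act through short elements in such regions. Each is the 250 bases before the annotated start, 5′ to 3′ on the strand of the gene, from RefSeq on build GRCm38.p6, with motif matches in capitals. Mafg lies on the minus strand at chr11:120633548-120633797 and Srxn1 on the plus strand at chr2:152105274-152105523.
Mafg: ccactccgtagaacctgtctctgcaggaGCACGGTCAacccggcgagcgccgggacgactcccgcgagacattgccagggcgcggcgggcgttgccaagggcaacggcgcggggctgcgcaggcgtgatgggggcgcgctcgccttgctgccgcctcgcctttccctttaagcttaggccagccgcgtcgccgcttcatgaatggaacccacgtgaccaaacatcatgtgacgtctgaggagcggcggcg
Srxn1: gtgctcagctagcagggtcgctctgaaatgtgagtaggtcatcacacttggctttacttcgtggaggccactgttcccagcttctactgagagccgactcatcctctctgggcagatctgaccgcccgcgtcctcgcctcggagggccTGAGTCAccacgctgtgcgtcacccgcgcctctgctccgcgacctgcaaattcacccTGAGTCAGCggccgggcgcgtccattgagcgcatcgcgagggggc

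Motifs were searched on both strands from 250 bases before to 50 after the start. The core of the antioxidant response element, TGACNNNGC, was matched in Mafg at -222 to -214 as GCACGGTCA, which is the core on the other strand. In Srxn1 the same core was matched once after the start, at 29 to 37. It occurs in 12.4% of 32851 windows of this length. The Maf-type element TGANTCAGC, in which an AP-1 core is followed by the bases GC that Maf proteins read, was matched in Srxn1 at -45 to -37 as TGAGTCAGC and not in Mafg, and it occurs in 1.19% of windows. The AP-1 core TGANTCA was matched in Srxn1 at -102 to -96 and again inside the Maf-type element, and 7.81% of windows hold a copy. A match is a string of letters, and no binding was measured.

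Mafg had a lower signal on every knockout array than on any wild-type array. The probe scl0017134.1_226-S read 9.40, 9.60, 9.45, 9.55 and 9.47 on wild type 1 to 5. It read 9.08, 8.86, 8.86 and 8.57 on knockout 1 to 4. The highest knockout array, knockout 1, lay 0.32 below the lowest wild-type array, wild type 1. The means were 9.50 ± 0.081 (SD, n = 5) for wild-type arrays and 8.84 ± 0.21 (SD, n = 4) for knockout arrays, a difference of -0.65 (SE 0.093). On the linear scale this is 1.57-fold less signal in the knockout, or 36.4% less. The spread within the knockout came mostly from the ends, knockout 1 and knockout 4, while knockout 2 and 3 lay at almost the same value. The groups were apart before any normalization as well, with signals of 908 to 1054.3 in the wild type and 656.3 to 745.2 in the knockout. Such signals also carry the general level of each array. Divided by the median signal of the array they overlapped, with knockout 4 at 4.93 and wild type 1 at 4.33. For the background, every knockout array lay below every wild-type array in 1.78% of 16375 probes compared, and above in 1.91%. By p Mafg stood at place 8 among these probes and at place 3 among those with a gene name, which is how it came to be chosen.

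**Figure D1:**
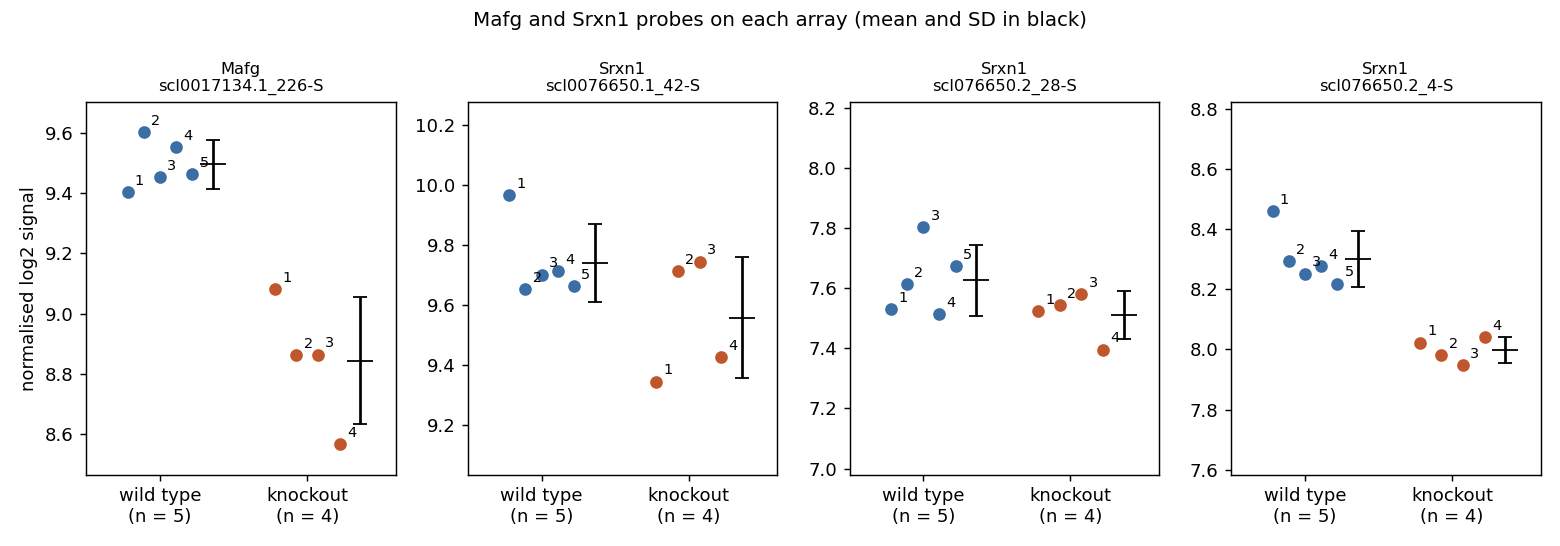
Normalised log2 signal (vertical axis, the same span in each panel) of the Mafg probe and the 3 Srxn1 probes on 5 wild-type (blue) and 4 knockout (orange) arrays, with the replicate number beside each point and mean ± SD in black. The groups are apart for Mafg and for Srxn1 probe scl076650.2_4-S and overlap for the other Srxn1 probes.

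Of the Srxn1 probes, scl076650.2_4-S separated the groups. It read 8.46, 8.29, 8.25, 8.28 and 8.22 on wild type 1 to 5. It read 8.02, 7.98, 7.95 and 8.04 on knockout 1 to 4. All knockout arrays lay below all wild-type arrays, with a gap of 0.18, and wild type 1 was the highest. The means were 8.30 ± 0.094 (SD, n = 5) and 8.00 ± 0.043 (SD, n = 4), a difference of -0.30 (SE 0.053), or 1.23-fold less signal in the knockout. When the non-normalized signal was divided by the median of the array, knockout 4 was the highest at 3.70, above wild type 5 at 3.14. Knockout 1 to 3 stayed below all wild-type arrays, at 2.44 to 2.60.

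The Srxn1 probe with the strongest signal, scl0076650.1_42-S, did not separate the groups. It read 9.97, 9.65, 9.70, 9.71 and 9.66 on wild type 1 to 5. It read 9.35, 9.71, 9.74 and 9.43 on knockout 1 to 4. Knockout 2 and 3 lay among the wild-type arrays, and only knockout 1 and 4 lay below them. The means were 9.74 ± 0.13 (SD, n = 5) and 9.56 ± 0.20 (SD, n = 4), a difference of -0.18 (SE 0.10), of about the size of the spread within the groups. It was -0.11 without knockout 1, -0.099 with array weights and -0.12 with median scaling.

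The third Srxn1 probe, scl076650.2_28-S, was the dimmest. It read 7.53, 7.61, 7.80, 7.51 and 7.67 on wild type 1 to 5. It read 7.52, 7.54, 7.58 and 7.40 on knockout 1 to 4. Wild type 1 and 4 lay within the range of the knockout arrays, and knockout 4 was the lowest. The means were 7.63 ± 0.12 (SD, n = 5) and 7.51 ± 0.080 (SD, n = 4), a difference of -0.12 (SE 0.067), which was -0.072 without wild type 3 and -0.065 with median scaling.

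All 3 Srxn1 probes thus had a lower mean in the knockout, where 50.2% of the probes compared did, but they differed in size and in which arrays were low. Averaged over the 3 probes, Srxn1 had 8.56 ± 0.063 (SD, n = 5) for wild-type arrays and 8.36 ± 0.073 (SD, n = 4) for knockout arrays, a difference of -0.20 (SE 0.045). The averages ran from 8.50 to 8.65 on the wild-type arrays and from 8.29 to 8.42 on the knockout arrays. Across the 9 arrays the probes followed each other weakly. Pearson's r was 0.57 between scl0076650.1_42-S and scl076650.2_4-S, 0.30 between scl0076650.1_42-S and scl076650.2_28-S, and 0.28 between the others. Spearman's rho was 0.083, 0.15 and 0.067 in the same order. After the group means were taken out, r was 0.26, 0.023 and -0.61. Over 572 pairs of probes that carry the same gene, the Srxn1 pairs included, the median r was 0.33. The middle 50% of pairs lay between -0.064 and 0.66, and 62.8% of pairs had differences of the same sign. All 3 values of r for Srxn1 lay within that middle range. These are descriptions over 9 arrays that the probes share, and the positions of the probes in the transcript were not used here.

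**Figure D2:**
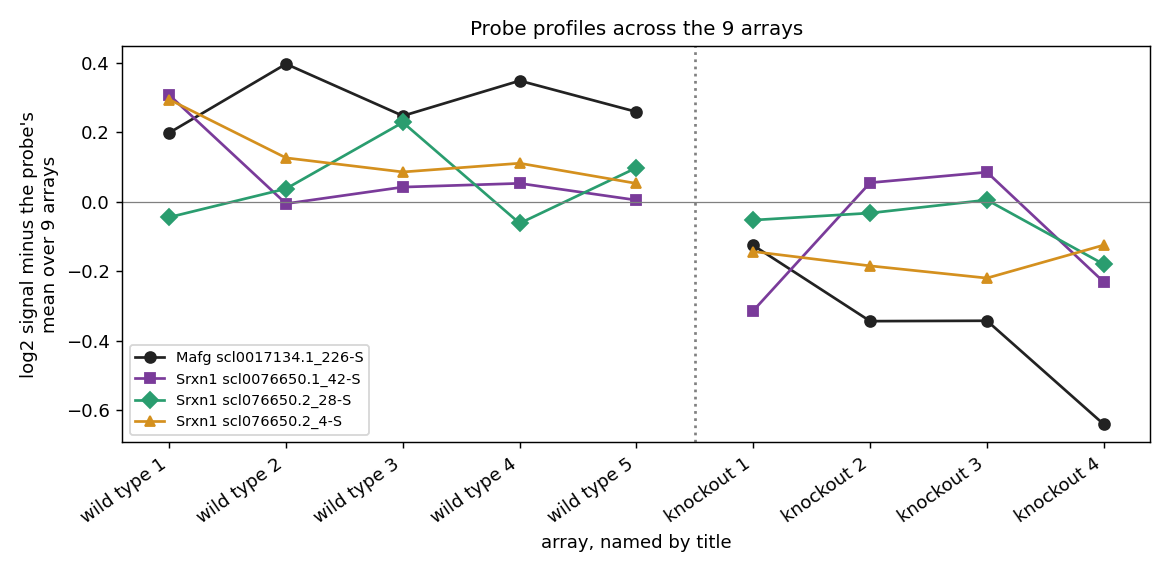
Log2 signal of each of the 4 probes minus its own mean over the 9 arrays (vertical axis), by array (horizontal axis), with wild type on the left and knockout on the right of the dotted line. Mafg and Srxn1 probe scl076650.2_4-S are above their mean on all wild-type arrays and below it on all knockout arrays, while the other Srxn1 probes cross it in both groups.

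Between the genes, Mafg and scl076650.2_4-S correlated at r = 0.81 (rho = 0.70) over the 9 arrays, a value that the choice of both for the same difference sets in part. After the group means were taken out r was -0.25. With the other Srxn1 probes, Mafg had r = 0.42 for scl0076650.1_42-S and 0.58 for scl076650.2_28-S, and -0.20 and 0.26 without the group means. Knockout 4, the array with the lowest Mafg value, had the highest scl076650.2_4-S value of the knockout arrays. A further probe, scl17134.7_259-S, has the digits of the Mafg number without a zero in front, and it differed by 0.14 (SE 0.10). It was not counted as Mafg, because numbers in that format were in the mouse gene table no more often (10.6%) than after a shift by 1 (10.4% up and 10.7% down), while 81.1% of numbers behind zeros were found, and 45.9% after such a shift.

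The separation depended on how the labels were read. With the genotype characteristic in place of the title, the Mafg difference was 0.33 (SE 0.21), it was 0.063 (SE 0.24) for titles matched by way of the processed values, and -0.39 (SE 0.20) for the characteristic matched in that way. For scl076650.2_4-S the same readings gave 0.048, -0.073 and -0.18. In none of these 3 readings were the groups apart for any of the 4 probes. By title through the signal table no wild-type array had the neomycin probe above background, and in each of these 3 readings some did. Only wild type 1, wild type 2 and knockout 1 belong to the same group in every reading, and over those 3 arrays the differences were -0.42 for Mafg and -0.35 for scl076650.2_4-S, with 1 knockout array and no spread of its own. Those 3 arrays are also the ones with high Xist, the RNA of the inactive X chromosome. The other 6 have low Xist, 3 against 3, a split chosen after seeing the data. Over them Mafg differed by -0.73 (SE 0.094) and scl076650.2_4-S by -0.26 (SE 0.046). The brightest Srxn1 probe differed by -0.46 over the first 3 arrays and by -0.064 over the other 6.

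**Figure D3:**
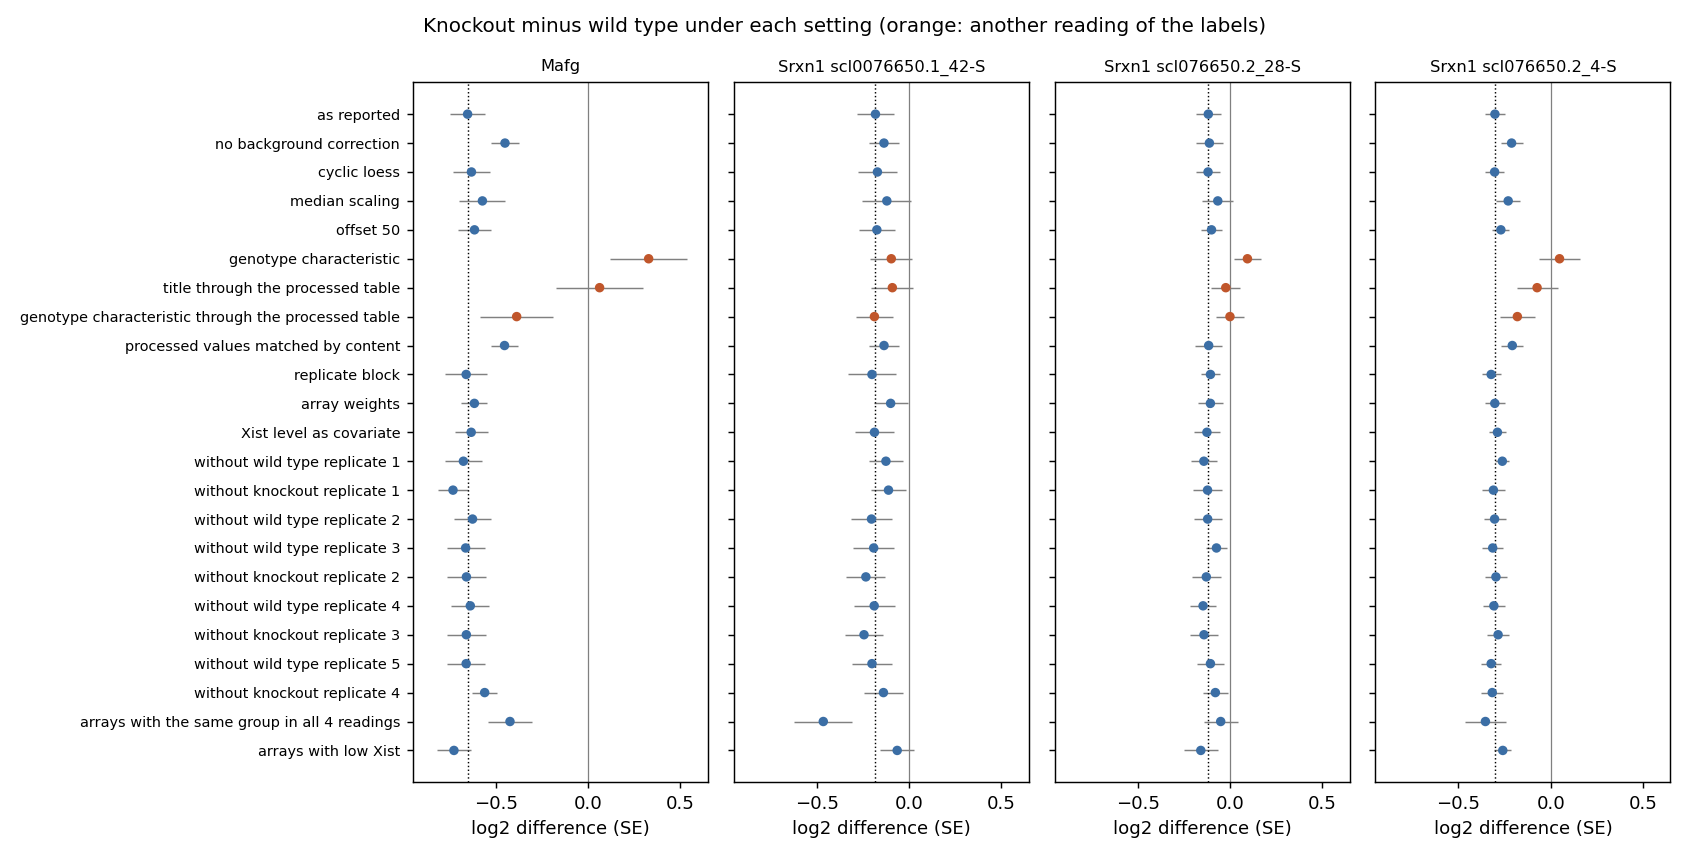
Log2 difference, knockout minus wild type, with its SE (horizontal axis) for each of the 4 probes (panels) under each setting (rows), with the reported value as a dotted line. Blue points use the titles through the signal table and lie left of 0 in every panel, and orange points use another reading of the labels and spread from -0.39 to 0.33 for Mafg.

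No marker gene of another cell type passed the threshold (limma, adjusted p under 0.05), which 0.0244% of the probes compared did. The ranges of the marker lists overlapped between the groups. Of 10 oligodendrocyte markers 5 were measured, none at background. All 5 had a lower mean in the knockout, where 50.2% of the probes compared did, with a median difference of -0.33. Their mean level relative to all arrays was -0.18 to 0.44 in the wild type and -0.44 to -0.085 in the knockout, with knockout 4 lowest for these and for Mafg. The 4 astrocyte markers measured were at -0.048 to 0.20 and -0.30 to 0.11, again with knockout 4 lowest. All 4 had a lower mean in the knockout, with a median difference of -0.17. The 6 neuronal markers were at -0.093 to 0.14 and -0.24 to 0.13, with a lower mean in the knockout for 5 and a median difference of -0.043. The other lists had 2 measured genes each, 1 with a higher and 1 with a lower mean. Blood markers were at -0.47 to 0.036 in the wild type and -0.11 to 0.52 in the knockout. Of these, S100a9, a neutrophil protein, differed by 0.67 (SE 0.23, limma adjusted p = 0.309) and Hba-a1 by -0.044. S100a9 was above background on 2 of 5 wild-type arrays and 4 of 4 knockout arrays. Microglial markers were at -0.14 to 0.15 and -0.13 to 0.094, endothelial markers at -0.090 to 0.080 and -0.060 to 0.071, and choroid plexus markers at -0.31 to 0.45 and -0.51 to 0.81. The part of these markers in the Mafg and Srxn1 values was not tested, and in whole tissue fewer cells of a type and less RNA per cell cannot be told apart.

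Among the partners and relatives of MAFG no gene passed the threshold (limma, adjusted p under 0.05), which 0.0244% of the probes compared did. Nfe2l1, the ubiquitous relative of NRF2, was at 12.03 ± 0.072 (SD, n = 5) and 11.94 ± 0.057 (SD, n = 4), a difference of -0.089 (adjusted p = 0.534). The repressors Bach1 and Bach2 differed by -0.0023 and -0.047. Bach1 was close to background, with 4 of 5 wild-type arrays and 3 of 4 from knockouts above it. Of the large Maf factors, which carry an activation domain, Maf differed by 0.0058 and Nrl, a factor of photoreceptors that was above background on 4 of 5 and 2 of 4 arrays, by -0.019. No measured probe was matched to Maff, Mafk or Nfe2l2, so the other small Maf proteins and NRF2 itself are not analysed here.

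Of 133 other genes in the lists of Maf partners, NRF2 regulators and antioxidant enzymes, 54 had a probe and 42 were measured. Each entered with its kept probe of highest mean signal. In either direction 0 of the 42 passed the threshold, which 0.0244% of the probes compared did. Only 1, Fth1, was at an unadjusted p under 0.05 (limma), as were 1876 of the 16375 probes compared. The means of the 42 genes were higher in the knockout for 20 and lower for 22. Their median difference was -0.0063, against -0.00035 over all probes compared.

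Genes that set the level of NRF2 had differences on both sides. Cul3, the scaffold of the ligase that marks NRF2 for destruction, was at 0.23 (SE 0.11, adjusted p = 0.476). Its partner Rbx1, the RING subunit, differed by -0.044 (SE 0.091) on the probe that entered the list. Another Rbx1 probe, which did not enter it, differed by 0.24 (SE 0.071). Sqstm1, the autophagy receptor p62 that takes up KEAP1, was at -0.064, and Dpp3, a peptidase that binds KEAP1, at -0.14 (SE 0.067, adjusted p = 0.467).

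The enzymes that work beside sulfiredoxin had differences of both signs, and none passed the threshold. Of the thioredoxin, peroxiredoxin and sulfiredoxin list, 10 of 25 genes were measured, Srxn1 included. The substrates of the pathway, the 2-cysteine peroxiredoxins, had differences of 0.018 for Prdx1 and 0.00019 for Prdx2, named here after their values were seen. The glutaredoxins Glrx, Glrx3 and Glrx5 differed by 0.076, -0.069 and -0.12, and nucleoredoxin, Nxn, by -0.025. Glrx2, a further glutaredoxin named after its value was seen, differed by 0.017. The smallest adjusted p among the 9 genes other than Srxn1 was 0.720.

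Other NRF2 targets and detoxifying enzymes had differences of both signs. Gclm, the modifier subunit of the enzyme that starts glutathione synthesis, differed by -0.12 (SE 0.081, adjusted p = 0.639). Slc7a11, the cystine importer, was above background on 3 arrays of each group and differed by 0.035. Among 6 glutathione transferases measured, Gstm1 (0.19), Gstk1 (0.18) and Gstp2 (0.089) had higher means and Mgst3 (-0.20) a lower one, with a smallest adjusted p = 0.594. Gstm and Gstp genes have near-identical copies, so their probes may read more than one gene. In the detoxification list Ugt1a6a was at 0.056, Nqo2 at 0.021 and Akr1b3 at 0.021. The means of Ugt1a6a (7.04 in the wild type, 7.10 in the knockout) and Nqo2 (7.01 and 7.03) were near that of Bach1. Both genes were above background on all arrays. In the list of NADPH supply, Pgd, an NADPH-producing enzyme of the pentose phosphate pathway, was at -0.055. Taldo1 and Tkt, of the branch of that pathway that makes no NADPH itself, were at -0.063 and -0.010, with the other probe of Tkt at 0.046. Idh1, which makes NADPH from isocitrate, was at 0.0023.

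In the list of superoxide, iron and metal defence, 4 of 6 measured genes had a lower mean in the knockout and 2 a higher one. Fth1, the ferritin heavy chain that stores iron and is an NRF2 target, was at 13.83 ± 0.11 (SD, n = 5) and 13.55 ± 0.19 (SD, n = 4), a difference of -0.29 (SE 0.092, adjusted p = 0.274). Its values were 13.67, 13.87, 13.97, 13.83 and 13.84 on wild type 1 to 5 and 13.80, 13.56, 13.47 and 13.36 on knockout 1 to 4. Knockout 1 lay above wild type 1, so the groups overlapped. Hspb1, a small heat shock protein, was at -0.26, and the metallothioneins Mt3 and Mt1 at -0.17 and 0.056. In the AP-1 list, whose proteins bind an element much like that of the Maf factors, Junb was at -0.46 (SE 0.31) and Fosl2 at -0.15. Of the 7 drug and glutathione exporters listed none was measured.

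**Figure D4:**
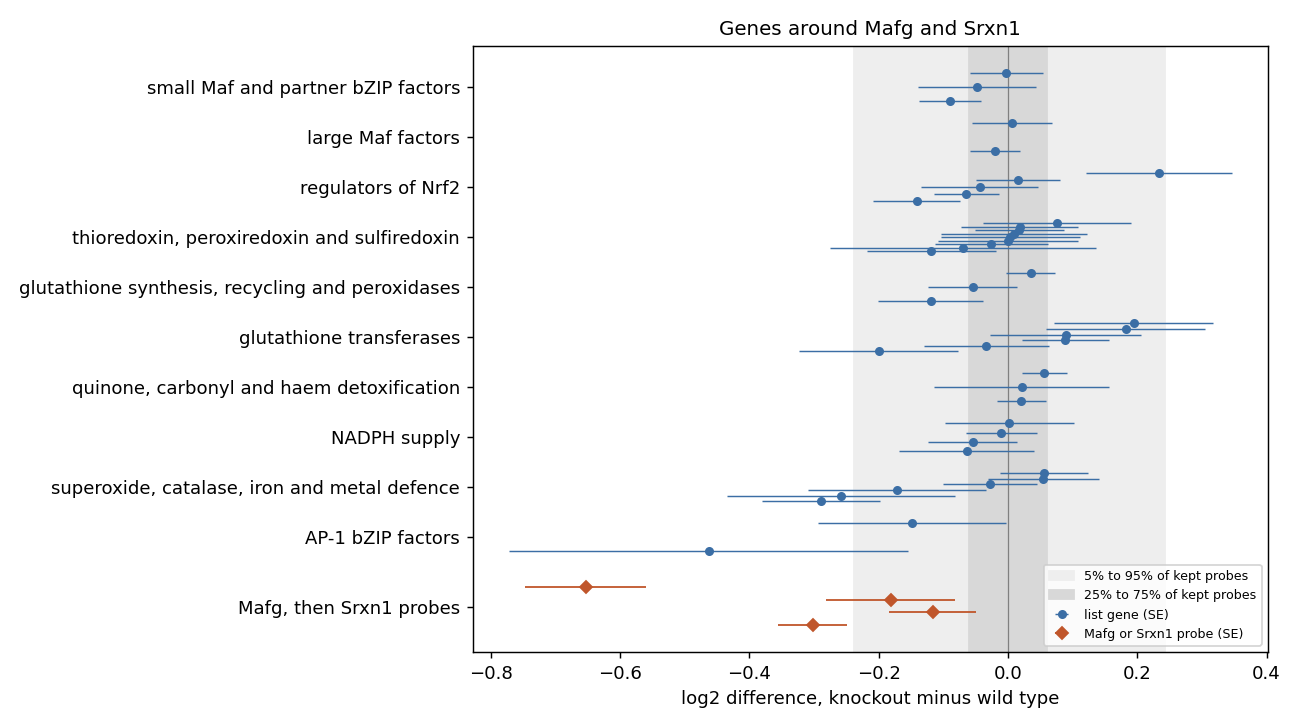
Log2 difference, knockout minus wild type, with its SE (horizontal axis) for the measured genes of 10 lists (blue, rows) and for the Mafg probe and the 3 Srxn1 probes (orange diamonds, bottom rows, Mafg first). Grey bands span the quartiles and the range from the 5% to the 95% quantile of the 16375 probes compared, and of the listed genes only Junb, Fth1 and Hspb1 lie outside the wider band, on its lower side.

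The named probes whose pattern over the 9 arrays was most like that of Mafg were Irgq (r = 0.95, rho = 0.87), Scarb1 (r = 0.93, rho = 0.98), Dusp8 (r = 0.93, rho = 0.82), Ezr (r = 0.93, rho = 0.93) and Spock2 (r = 0.92, rho = 0.93). Scarb1 is a receptor for high-density lipoprotein, Dusp8 a phosphatase of MAP kinases, Ezr a linker of actin to the membrane and Spock2 a proteoglycan of the extracellular matrix. These lead 4926 named probes, of which 13 had r above 0.9. For 4 of them r stayed between 0.88 and 0.94 after the group means were taken out, with Dusp8 at 0.66. Scarb1 shows the resemblance, with 8.23, 8.52, 8.28, 8.43 and 8.25 on wild type 1 to 5 and 8.19, 7.85, 8.08 and 7.56 on knockout 1 to 4. As for Mafg, wild type 2 was the highest array and knockout 4 the lowest. A second probe of Irgq had r = 0.30, so that match rests on 1 probe.

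For the brightest Srxn1 probe the nearest patterns were Golgb1 (r = 0.91, rho = 0.77), AU022252 (r = 0.91, rho = 0.83), Zfp341 (r = 0.88, rho = 0.82), Git2 (r = 0.88, rho = 0.78) and Scrt1 (r = 0.87, rho = 0.75). Golgb1 is the Golgi tether giantin, Git2 a GTPase-activating protein of ARF factors and Scrt1 a repressor found in neurons. Their differences between the groups ran from -0.18 to -0.043. The 2 lists of nearest genes had no gene in common.

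Among the 5 protein-coding genes on each side of Mafg in the gene table, 3 were measured, Alyref, Sirt7 and Aspscr1, with differences between -0.092 and 0.011. On either side of Srxn1, 2 of 10 were measured, Fam110a at -0.065 and Tbc1d20 at -0.57 (SE 0.12, adjusted p = 0.175). None passed the threshold. The neighbours were not part of the rule for named genes and were named after their values were seen.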

How the data were processed

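Brain RNA of 9 mice was labelled with biotin and hybridised to bead arrays, per the labels' protocols. The authors deposited 1 signal per probe and array without normalizing it, per the file headers, and these linear values are bead intensities. The authors deposited a detection value beside each, a fraction from 0 to 1 computed by steps not given in the sources used here, which rises with the signal, so 1 minus it served as the detection p. The processed table deposited by the authors holds log2 values, and quantile normalization of the signals followed by log2 recovered them to within 0.0051.

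The neqc function of limma (3.58.1, under R 4.3.3) corrected the background and normalized the arrays, with an offset of 16. Probes detected at p under 0.05 on at least 4 arrays were kept, 16375 in all, and compared with lmFit and eBayes, two-sided, with Benjamini-Hochberg adjustment over all of them. Names came from a RefSeq table of GRCm38.p6, by gene number for 9832 probes, clone for 982 and accession for 9. Both members had a promoter there. No probe's sequence was used.

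The members and gene lists were chosen with earlier results of these data known. Named genes are all measured Maf relatives, up to 4 genes of smallest p per other list, and the 5 probes most like each member. For a gene with several kept probes, the one of highest mean signal entered its list. The test was checked on simulated data. The number of arrays limits the precision. The series counts as many mice as arrays, so each array was taken as 1 animal. Alternatives were other label readings, background corrections, normalizations, filters, array weights, a replicate block, Xist level and leaving out each array.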

Additional observations from a re-analysis of the deposited data

Results flagged for a closer look

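Among 92 groups of 4 or 5 arrays for the named genes, 5 held an array that lay far from the rest of its group, where chance alone gives about 1 in 20. For Srxn1 probe scl0076650.1_42-S wild type 1 read 9.97 and the nearest wild-type array 9.71, and this array was also the highest for scl076650.2_4-S but not for scl076650.2_28-S. Gclm on wild type 2 read 8.14 against 7.84 for the nearest. Knockout 4 stood apart for Rbx1 (11.85 against 11.49), Mt1 (13.87 against 14.08) and Junb (8.15 against 7.44), and it also had the lowest median signal of all arrays, 133.2. Neither group of the Mafg probe held such an array.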

How the results depend on the processing

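Grouped by title through the signal table, all 4 probes kept a lower mean in the knockout in every setting run. The Mafg difference ran from -0.73 to -0.56 when 1 array was left out, and it was -0.45 without background correction, -0.45 with the processed values and -0.42 over the 3 arrays with the same group in all readings, a setting chosen after seeing the data. Left-out arrays gave -0.24 to -0.11 for scl0076650.1_42-S, -0.14 to -0.072 for scl076650.2_28-S and -0.32 to -0.26 for scl076650.2_4-S. The latter was at -0.21 without background correction and -0.21 with the processed values, and scl0076650.1_42-S at -0.46 over the 3 arrays. Other readings of the labels, in the order characteristic, title through the processed table and characteristic through it, gave 0.33, 0.063 and -0.39 for Mafg, 0.048, -0.073 and -0.18 for scl076650.2_4-S, 0.096, -0.022 and 0.00099 for scl076650.2_28-S and -0.096, -0.090 and -0.19 for scl0076650.1_42-S. With the replicate block the differences were -0.66 for Mafg and for the Srxn1 probes -0.20 (scl0076650.1_42-S), -0.10 (scl076650.2_28-S) and -0.32 (scl076650.2_4-S). Replicate numbers did not pair the arrays (correlations of deviations -0.31 to 0.10).

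The number of probes past the threshold (limma) was 4, and 11 without background correction, 13 with the processed values, 2 with median scaling, 2 with Xist as a covariate, 1 with the replicate block, 1 over the 3 arrays, 1 over the 6 arrays with low Xist, and 2 to 48 when 1 array was left out, the most without knockout 1, 7 without knockout 3 and 2 without wild type 1, 2, 3 or 5. It was 0 for probes detected on all 9 arrays (1622 at an unadjusted p under 0.05) and 0 in the 3 other readings (669, 615 and 391). The cause was not tested. Of the listed genes 0 passed in any setting with more than 1 array per group, with 1 to 5 at an unadjusted p under 0.05. Among all 16375 probes compared, 1876 were at such a p with the settings as reported.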
